A study of Mus musculus with 2 samples.

Results

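The RNAs described here are the 24 to 33-nt RNAs that matched exactly 1 long noncoding gene of the mouse annotation, GENCODE M21, and that lay in no GENCODE miRNA hairpin or structural RNA gene such as rRNA or snoRNA. Small RNAs that this annotation lacks or types as long noncoding stayed among them, and full-length rRNA and nuclear tRNAs were not among its transcripts. The gene types taken were lincRNA, antisense, TEC (a transcript still to be tested), processed_transcript and sense_intronic. A further 11 long noncoding loci, described as a group only for comparison, and 3 rRNA-like genes (Gm42418, Gm26917 and AY036118) were left out. This gave 15622 distinct sequences, or 1.38% of the 1132769 distinct sequences of both libraries, from 2811 of 13135 such genes. Small RNA had been sequenced on a MiSeq instrument from whole testes of C57BL/6 embryos at E16.5, 20 of them pooled for the 1 library of each genotype, WT or Hsp90α KO. KO embryos lacked Hsp90α, the inducible cytosolic Hsp90 chaperone encoded by Hsp90aa1. With 1 library per genotype there was no replicate check, and every interval below is a 95% interval for the counting of reads only.

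PIWI-interacting RNAs (piRNAs) guide PIWI proteins to transposon transcripts in the male germ line. In fetal germ cells MILI carries shorter and MIWI2 longer piRNAs, primary piRNAs tend to begin with uracil, and secondary piRNAs made by PIWI cleavage (the ping-pong cycle) tend to carry adenine at position 10 and to share a 10-nt overlap with the opposite strand. Long noncoding transcripts can be piRNA precursors, can contain transposon copies, and can host snoRNAs and miRNAs.

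The sequences below show the kinds of RNA found, in DNA letters as deposited (T stands for U), 5′ to 3′, with positions 1 and 10 in capitals. Each is the most abundant one of its gene. The first 4 came from genes whose RNAs rarely began with uracil.
AA474408: AgcctctggCatgttggaacaatgta
Rian: AatcatgacGacaaatttaattctgaga
Gm15564: CtgggtttaGaccgtcgtgagaca
Gm34060: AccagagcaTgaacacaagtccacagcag
The next 4 came from genes with mostly uracil-first RNAs.
Gm43197: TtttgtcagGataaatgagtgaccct
Gm47652: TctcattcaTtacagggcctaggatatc
AU020206: TcctctagtTtccaggactgtgggcct
Zim2: TgaagaaccAgtcccggggcagagccctc

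On GRCm38 (GENCODE M21) the AA474408 sequence lay at chr7:110059828-110059853 on the minus strand, and the Rian sequence at chr12:109650708-109650735 on the plus strand. The Gm15564 sequence lay at chr16:35981726-35981749 (minus), and the Gm34060 sequence at chr14:44767330-44767358 (minus). The Gm43197 and Gm47652 sequences lay at chr6:3337658-3337683 (plus) and chr9:37334111-37334138 (plus). The AU020206 and Zim2 sequences lay at chr7:75770315-75770341 (minus) and chr7:6652528-6652556 (minus). All 8 lay within annotated exons, and those of Gm34060, Gm43197 and Gm47652 were antisense to the gene.

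The next 3 pairs are the 5′ ends of opposite strands of 1 gene with the largest weight at an overlap of 10 nt. At most 1 pair was taken per gene, and 1 sequence is shown for each end. The overlapping 10 bases are in capitals.
Gm48161 sense: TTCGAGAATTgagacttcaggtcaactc
Gm48161 antisense: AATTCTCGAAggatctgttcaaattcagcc
Gm48309 sense: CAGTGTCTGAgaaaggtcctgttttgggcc
Gm48309 antisense: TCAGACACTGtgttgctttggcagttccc
Gm42863 sense: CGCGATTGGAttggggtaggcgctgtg
Gm42863 antisense: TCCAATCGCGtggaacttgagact
The Gm48161 pair lay at chr13:30376241-30376288, the Gm48309 pair at chr12:13425356-13425404 and the Gm42863 pair at chr5:145506954-145506994.

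The libraries held 6409305 reads (WT) and 5589326 reads (KO), of which 2523084 and 2561491 were miRNA reads. Reads matching Hsp90aa1 alone, at any length from 16 nt, numbered 3 and 10 (WT and KO), too few to check the genotype. Among miRNAs that mark cell types, the germ cell miR-290 to miR-295 group summed to 2005 WT and 2641 KO reads (KO/WT 1.30, 1.22 to 1.38) and the gonadal support cell markers miR-202 and miR-140 gave 1.06 (1.03 to 1.10). The smooth muscle markers miR-143 and miR-145a gave 0.812 (0.804 to 0.820), the endothelial marker miR-126a gave 1.0 (0.979 to 1.03), and the blood markers miR-451a, miR-144 and miR-142 gave 0.813 (0.759 to 0.871). The part of these marker differences in the values below was not tested. In whole testes, fewer cells of a type and less RNA per cell cannot be told apart.

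The 24 to 33-nt RNAs of the long noncoding genes were less abundant in KO testes. They took 20468 WT reads and 9225 KO reads, or 8112 and 3601 reads per 1000000 miRNA reads, which made 0.319% and 0.165% of each library. The KO/WT ratio of the normalized values was 0.444 (0.433 to 0.455). Most of this population was sparse. Of the 11771 sequences seen in WT, 81.9% had been read once, and of the 5474 seen in KO, 83.9%. The libraries had 1623 sequences in common, or 10.4% of all, and these, which had to be read in KO to count, had a ratio of 0.596 (0.575 to 0.617). Reads came from 2406 genes in WT and 1482 in KO. Of the 2811 genes, 1224 had 1 read over both libraries, 2615 had fewer than 20, and 196 had at least 20, which together held 72.9% of the normalized reads. Of the normalized reads, 42 genes held 50%. The 2615 sparse genes had, summed, a ratio of 0.386 (0.367 to 0.405), below the 0.467 (0.454 to 0.480) of the 196. In the sparse genes 76.2% of WT reads began with uracil, against 60.9% in the 196 genes.

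Gene by gene, 134 of the 196 genes, or 68.4%, were at least 2-fold lower in KO, and 2, Gm21269 and Gm48617, were at least 2-fold higher. Over all 1052 genes of any type with at least 20 such reads, 50.6% were at least 2-fold lower and 1.05% at least 2-fold higher, and the median ratio was 0.492 against 0.406 over the 196. The 95% interval lay wholly below 1 for 148 of the 196 genes, against 49.7% of all genes. The whole interval was above 1 for 2. Gm21269, a lincRNA gene on chromosome 7, had 4 WT and 27 KO reads, all sense and from 23 5′ ends, with 87.1% beginning with uracil (ratio 6.65, 2.32 to 26.1). Gm48617 had 5 WT and 17 KO reads from 4 5′ ends (3.35, 1.19 to 11.6). These genes were named after their values were seen. The interval held the ratio of all members, 0.444, in 157 of the 196 genes, lay above it in 15 and below it in 24.

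All 5 gene types fell. The ratio was 0.399 (0.383 to 0.417) for lincRNA genes with 7383 WT and 2993 KO reads, and 0.446 (0.414 to 0.480) for antisense genes with 2313 and 1048. It was 0.480 (0.462 to 0.499) for TEC genes with 8337 and 4064 reads, 0.482 (0.444 to 0.523) for processed transcripts with 1764 and 863, and 0.377 (0.325 to 0.436) for sense intronic genes with 671 and 257. The intervals of lincRNA and TEC genes did not overlap, but they came closer, to 0.387 (0.370 to 0.404) and 0.428 (0.410 to 0.447), when the 9 genes with under 25% uracil at position 1, described below, were left out.

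Set beside other 24 to 33-nt RNAs, the ratio of 0.444 (0.433 to 0.455) stood somewhat above the 0.408 (0.392 to 0.425) of the 11 long noncoding loci left out and the 0.392 (0.371 to 0.415) of RNAs matching a pseudogene alone, with no overlap of the intervals. Without the 9 low-uracil genes described below it stood at 0.403 (0.393 to 0.415). RNAs matching 1 protein-coding gene stood at 0.617 (0.610 to 0.624) and fragments of structural RNA at 0.874 (0.865 to 0.883). These differences could not be tested between animals. In WT the uracil-first share of the members, 65.2%, was below that of the 11 loci, 77.9%, and close to the 66.0% of protein-coding genes. Structural fragments stood at 26.0%. Sense reads made 64.3% of the members in WT and 45.1% in the 11 loci.

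The lengths peaked at 28 nt in WT, with 4229 reads, and at 27 nt in KO, with 1869. The ratio was highest at 24 nt, at 0.598 (0.535 to 0.668), and lowest at 30 nt, at 0.365 (0.336 to 0.396). RNAs of 24 to 27 nt, the sizes usual for MILI, had a ratio of 0.490 (0.473 to 0.508), and those of 28 to 32 nt, usual for MIWI2, had 0.404 (0.390 to 0.418). Without the 9 low-uracil genes the values were 0.448 (0.431 to 0.466) and 0.365 (0.351 to 0.380), so that the longer class stayed lower. Adenine at position 10 was more frequent in the longer class. In WT it was at 41.8% there and at 27.5% in the shorter class, and in KO at 36.7% and 26.6%. At 29 and 30 nt it reached 46.9% and 49.2% of WT reads.

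Over all members the share beginning with uracil was 65.2% in WT (64.5 to 65.8) and 60.5% in KO (59.5 to 61.5), and 35.3% (34.6 to 35.9) and 31.6% (30.6 to 32.5) had adenine at position 10, all above the 25% of equal base use. Uracil-first RNAs fell to 0.412 (0.399 to 0.425) and all others to 0.504 (0.484 to 0.525). RNAs with neither mark fell least, to 0.584 (0.555 to 0.613), and those with adenine at position 10 but no first uracil fell to 0.391 (0.365 to 0.419). Sense RNAs had a ratio of 0.467 (0.453 to 0.482) and antisense RNAs 0.402 (0.385 to 0.419). The strands differed in RNAs that did not begin with uracil, at 0.559 (0.534 to 0.585) for sense and 0.370 (0.341 to 0.402) for antisense. For uracil-first RNAs the values were 0.410 (0.394 to 0.427) and 0.414 (0.394 to 0.436).

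Most of these differences by strand and first base lay in few genes. In 174 of the 196 genes at least 50% of reads began with uracil, in 13 it was 25 to 50%, and in 9 it was under 25%. The 9 genes held 2660 WT and 1931 KO reads with a ratio of 0.715 (0.674 to 0.758), and 88.0% of their WT reads were sense. Without them the ratio of all members was 0.403 (0.393 to 0.415), and sense and antisense RNAs stood at 0.405 (0.391 to 0.419) and 0.402 (0.384 to 0.420). The uracil-first share was then 74.3% in WT and 75.1% in KO, a rise fixed in advance because the genes were chosen by this share. Uracil-first and other RNAs then stood at 0.408 (0.395 to 0.421) and 0.390 (0.369 to 0.412), and sense RNAs without a first uracil at 0.407 (0.380 to 0.436). Antisense RNAs without a first uracil stayed lower, at 0.363 (0.331 to 0.397). RNAs with neither mark then stood at 0.429 (0.395 to 0.465). Those with adenine at position 10 but no first uracil stood at 0.361 (0.335 to 0.389). Adenine at position 10 was then found in 57.3% (WT) and 53.0% (KO) of the reads without a first uracil, against 32.1% and 31.6% of those with one. Over the 174 genes the median ratio was 0.394 and the quartiles 0.290 and 0.536, with 123 genes at least 2-fold lower.

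AA474408, a TEC gene that overlaps the antisense gene 1600010M07Rik on its strand and Zfp143 on the other, was the most abundant of the 9 and of all members, with 7.98% of the normalized reads. It took 1349 WT and 1026 KO reads (535 and 401 per 1000000 miRNA reads), for a ratio of 0.749 (0.690 to 0.813). All were sense, 99.5% had their 5′ ends in 1 window of 100 bases, and 4.08% began with uracil. The same gene took 4191 WT and 3879 KO reads of 16 to 23 nt, with a ratio of 0.912 (0.872 to 0.953). Of the 20476 reads of 24 to 33 nt sharing at least 20 bases with its members, 11.6% were members, and 69.8% lay whole in transcripts of Lars2, the mitochondrial leucyl-tRNA synthetase gene. Summed, these overlapping reads had a ratio of 0.745 (0.725 to 0.766). Gm15564, an antisense gene over Kpna1 and Parp9, had 303 WT and 252 KO reads (0.819, 0.690 to 0.971), all sense with 8.29% uracil-first and with 53.2% in 1 window of 100 bases. Of its 7493 overlapping reads 7.41% were members and 84.7% lay in Lars2. For both genes a match to rRNA was not tested, since full-length rRNA was not among the transcripts, so that these RNAs cannot be taken as products of the gene they matched.

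Rian, a maternally expressed imprinted host of snoRNAs, took 434 WT and 323 KO reads (0.733, 0.633 to 0.849). All were sense, 1.85% began with uracil, and 97.9% fell in 1 window of 100 bases. Of these reads, 424 WT and 315 KO lay within 5 bases of AF357359 (MBII-426), a snoRNA of RefSeq at chr12:109650709-109650738 that is not a gene of GENCODE M21. The sequence printed for Rian above is the most abundant of them, with 192 WT and 150 KO reads. Rmrp, the RNA of the RNase MRP complex, is annotated as a lincRNA. It had 127 WT and 108 KO reads (0.838, 0.642 to 1.09), all sense, none beginning with uracil, from 5 5′ ends. Gas5, a snoRNA host, had 35 WT and 24 KO reads (0.675, 0.384 to 1.17), of which 29 and 12 lay in a RefSeq snoRNA. In all, 17 small RNA genes of RefSeq held 74 member sequences with 613 WT and 460 KO reads.

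Of the other 4 genes, Gm34060, a lincRNA gene on chromosome 14, had 223 WT and 107 KO reads (0.473, 0.372 to 0.598), of which 0.909% were sense and 0.606% began with uracil, and 99.1% came from 1 window of 100 bases. Gm49272 had 106 WT and 73 KO reads (0.678, 0.496 to 0.923), 81.0% of them sense, 11.2% uracil-first and 80.4% in 1 window of 100 bases. Gm45518 had 58 and 11 reads (0.187, 0.0884 to 0.359), 1.45% sense, with adenine at position 10 in 88.4% and uracil first in 23.2%. Gm30262 had 25 and 7 reads (0.276, 0.101 to 0.656), 34.4% sense. Of the 9 genes, Rmrp and Gas5 had intervals that included 1, and the other 7 had intervals below 1.

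Among the 15 most abundant genes, which held 33.5% of the normalized reads, all 12 other than AA474408, Rian and Gm15564 had ratios between 0.324 and 0.620. Gm43197, a TEC gene on chromosome 6, had 413 WT and 246 KO reads (164 and 96.0 per 1000000 miRNA reads), 8.19% of them sense and 92.4% uracil-first. Its most abundant sequence had 180 WT and 119 KO reads, 45.4% of the gene's, and the gene's ratio was 0.587 (0.499 to 0.689). Gm47652, a TEC gene inside Ccdc15, had 484 WT and 235 KO reads (0.478, 0.407 to 0.560) spread over 129 5′ ends. Of these 17.9% were sense and 83.7% uracil-first, and its most abundant sequence had 25 and 11 reads. Gm42863, which overlaps the RefSeq pseudogene Cyp3a58-ps on chromosome 5, had 515 WT and 183 KO reads (0.350, 0.294 to 0.415), of which 49.9% were sense and 51% began with uracil. Gm38312, inside Sh3bp4, had 410 and 199 reads (0.478, 0.402 to 0.568) with adenine at position 10 in 63.2%, the highest of the 15. Of the overlapping reads, 88.5% matched the gene alone for Gm43197, 39.7% for Gm47652, 55.8% for Gm42863 and 27.99% for Gm38312. Of the reads of these genes, in the same order, 0.91%, 100%, 83.1% and 52.5% lay within 2 mismatches of another gene.

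The lincRNA gene Gm42047 on chromosome 8 had 435 WT and 152 KO reads from 191 5′ ends (0.344, 0.284 to 0.415), 71.0% of them sense. AU020206, a lincRNA gene on chromosome 7 that overlaps no other annotated gene, had 264 and 88 reads from 132 5′ ends (0.328, 0.255 to 0.419). All were sense, 90.6% began with uracil, 22.2% had adenine at position 10, and 93.9% of the overlapping reads matched this gene alone. AU020206 RNAs thus matched 1 strand along the transcript and were mostly not shared with other transcripts. Copies outside the annotated transcripts were not searched. AC160336.1 had 351 and 118 reads (0.331, 0.266 to 0.409) and AC154172.2 274 and 90 (0.324, 0.252 to 0.412), and here 4.06% and 4.83% of the overlapping reads matched the gene alone. Gm48309, in Nbas, had 426 and 185 reads (0.428, 0.358 to 0.510), 12.6% sense. Gm48161, inside Agtr1a, had 361 and 145 (0.396, 0.324 to 0.481), 72.5% sense. Gm43041 had 224 and 141 (0.620, 0.499 to 0.769), 88.8% sense. Of the overlapping reads, 7.28% matched the gene alone for Gm48309, 23.4% for Gm48161, 50.98% for Gm43041 and 49.2% for Gm42047. Of the reads of Gm48309, Gm48161 and Gm43041, 100%, 99.01% and 98.9% lay within 2 mismatches of another gene, against 26.6% for Gm42047. Whether these RNAs came from the named genes was not tested.

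The uracil-rich genes fell whether or not most of the overlapping reads matched them alone among the transcripts. In 40 of the 196 genes at least 80% of the reads sharing 20 bases with the members matched that gene alone. Of these genes, the 37 with at least 50% uracil-first reads had a summed ratio of 0.431 (0.400 to 0.465), and the 137 uracil-rich genes under 80% had 0.406 (0.390 to 0.421). Adenine at position 10 differed more between them, at 30.3% of WT reads in the 37 genes and 43.7% in the 137. Over all members, 51.9% of the sequences lay within 2 mismatches of another gene's transcript. These had a ratio of 0.396 (0.382 to 0.410), against 0.505 (0.487 to 0.523) for the rest, which held nearly all reads of AA474408, Rian and Rmrp. Without the 9 low-uracil genes the values were 0.380 (0.366 to 0.394) and 0.440 (0.421 to 0.458). In the rest, all genes included, position 10 held adenine in 27.5% of WT and 23.5% of KO reads, against 41.5% and 39.8%. Without the 9 low-uracil genes these shares were 32.1% and 29.6%, against 42.9% and 42.4%.

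By strand, 81 of the 196 genes had at least 80% sense reads, 35 had at least 80% antisense reads, and 80 lay between. Among uracil-rich genes the summed ratio was 0.397 (0.373 to 0.423) for 70 sense genes, 0.454 (0.424 to 0.485) for 30 antisense genes, and 0.397 (0.377 to 0.417) for 74 genes with both strands. Adenine at position 10 made 36.4% of WT reads in the sense genes, 36.6% in the antisense genes and 46.3% in the genes with both strands. Of all member reads, 14489 in WT and 6734 in KO lay outside protein-coding genes (0.458, 0.445 to 0.471). On the strand of an overlapping protein-coding gene lay 2941 and 1088 (0.364, 0.340 to 0.391), and on the opposite strand 3024 and 1397 (0.455, 0.427 to 0.485). Sequences that span an exon junction of the matched transcript numbered 126, with 126 WT and 85 KO reads (0.664, 0.499 to 0.882) and 81.0% and 72.9% uracil-first. Of these reads 63.5% in WT and 71.8% in KO were sense. Whether they came from spliced RNA was not tested, since no genome was searched.

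The lowest ratios among the 91 genes with at least 50 reads were those of Gm48680 (47 WT and 5 KO reads, 0.105, 0.0325 to 0.262), Gm37607 (49 and 6, 0.121, 0.0422 to 0.282) and Zim2 (261 and 36, 0.136, 0.0931 to 0.193). CT010502.2 (47 and 7, 0.147, 0.0559 to 0.327) and Gm48613 (63 and 11, 0.172, 0.0817 to 0.329) followed. Zim2, a gene of the imprinted Peg3 domain annotated here as a processed transcript, had the most reads of the 5. They were all sense, came from 74 5′ ends, began with uracil in 91.9% and had adenine at position 10 in 46.5%, and 93.7% of the overlapping reads matched Zim2 alone. No Zim2 sequence lay within 2 mismatches of another gene. At 16 to 23 nt Zim2 had 12 WT and 2 KO reads. In CT010502.2, inside Pdpk1, 1 sequence held 68.5% of the reads, and in it, Gm48680, Gm37607 and Gm48613 100% of the reads lay within 2 mismatches of another gene.

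The highest ratios among the 91 genes were those of Gm49794 (21 WT and 35 KO reads, 1.64, 0.929 to 2.97), Mirg (49 and 45, 0.905, 0.590 to 1.38), 4833422M21Rik (60 and 55, 0.903, 0.615 to 1.32), Gm37625 (32 and 28, 0.862, 0.50 to 1.48) and Malat1 (30 and 26, 0.854, 0.485 to 1.49). All 5 intervals included 1, so that no change was detectable at this depth. In Mirg, an imprinted miRNA host, 80.9% of the reads fell in 1 window of 100 bases, and the median length was 25 nt. In 4833422M21Rik 1 sequence of 25 nt held 76.5% of the reads.

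Of the listed well-known long noncoding RNAs, only Rian was among the 15 most abundant genes. Of 9 imprinted genes, 7 had reads and 3 had at least 20. Rian and Mirg are described above, and Kcnq1ot1, the antisense RNA of the Kcnq1 domain, had 96 WT and 23 KO reads (0.236, 0.143 to 0.375). Of the Kcnq1ot1 reads 25.2% were sense, 80.7% began with uracil, 63.9% had adenine at position 10, and 2.35% of the overlapping reads matched it alone. Of 5 nuclear RNAs, all had reads and 2 had at least 20. Neat1 of the paraspeckles had 44 and 24 reads (0.537, 0.312 to 0.903), 95.6% sense and 95.6% uracil-first, and Malat1 of the nuclear speckles is given above. Of 18 snoRNA hosts listed, 15 were of the gene types taken, all 15 had reads, and Gas5 and Snhg17 (18 and 12 reads, 0.657, 0.289 to 1.44) had at least 20. Of 10 miRNA hosts of these types 6 had reads, of 4 X inactivation genes 3, and of 8 Hox cluster genes 1, none with 20. Summed, the imprinted list had 606 WT and 404 KO reads and a ratio of 0.657 (0.578 to 0.746), but most were the Rian reads at AF357359. Without Rian it had 172 and 81 reads (0.464, 0.352 to 0.608). Zim2, at 0.136, was not on the list. The ratio was 0.684 (0.482 to 0.964) for the nuclear list, 0.809 (0.580 to 1.13) for the snoRNA hosts, 0.575 (0.275 to 1.16) for the miRNA hosts and 0.657 (0.136 to 2.77) for the X inactivation genes. The Hox cluster list had 1 KO read. Of the 7 genes of these lists with at least 20 reads, Kcnq1ot1 was the 1 that was at least 2-fold lower, and none was 2-fold higher, beside 50.6% and 1.05% of all 1052 genes.

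Pairs of 5′ ends on opposite strands of a gene, weighted by their reads, were examined for the 10-nt overlap of ping-pong. In WT it made 10% of the weight at overlaps of 1 to 30 nt, against a mean of 3.10% (SD 7.57) at the other 29 overlaps. In KO it made 17%, against 2.86% (SD 5.15). The WT share lay within 1 SD of the other overlaps. The largest share lay at 27 nt, with 41.7% in WT and 28.3% in KO, and came mostly from 1 pair of 5′ ends in Gm42863. Without the largest pair, the 10-nt overlap led in both libraries, at 16.8% in WT (others 2.87%, SD 2.46) and 23.3% in KO (others 2.64%, SD 2.19). The 10-nt weight rested in turn on the Gm48161 pair, which gave 43.9% of it in WT and 30.7% in KO. Without this pair as well, the 10-nt share was 10.2% in WT, where 26 nt led, and 17.4% in KO, where 10 nt led. Without sequences within 2 mismatches of another gene, it was 12.7% in WT, where it led, and 7.42% in KO, where 26 nt led. With each 5′ end counted once it again led, at 5.81% (others 3.25%, SD 1.13) and 7.61% (others 3.19%, SD 0.953). The 10-nt pairs came from 68 genes in WT and 26 in KO. In the 3 pairs printed above, 2 of the antisense members, those of Gm48309 (58 WT and 35 KO reads) and Gm42863 (77 and 35), begin with uracil, as does the sense member of Gm48161 (86 and 53). Their partners begin with A or C and had 21 WT and 7 KO reads in Gm48161, 3 and 2 in Gm48309, and 1 and 2 in Gm42863. These are counts of the printed sequences. Counting all reads of the same 5′ end, the partners had 34 WT and 10 KO reads in Gm48161, 6 and 6 in Gm48309, and 3 and 3 in Gm42863. The uracil-first ends had 109 and 59, 147 and 90, and 171 and 81.

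Head-to-tail order on 1 strand, with a 5′ end directly after a 3′ end, is a mark of phased piRNA production. It made 2.45% of the weight at distances of 1 to 50 nt in WT and 2.96% in KO, against means of 1.99% (SD 0.947) and 1.98% (SD 1.47) at the other distances, which lies within that spread.

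Other lengths of the same genes behaved differently. Their 16 to 19-nt reads had a ratio of 0.953 (0.896 to 1.01) and their 20 to 23-nt reads 0.828 (0.795 to 0.863). Their 34 to 48-nt reads, 1979 in WT and 592 in KO, had 0.295 (0.268 to 0.323). Of these, 940 and 364 were of 36 nt alone, from 98 sequences (0.381, 0.337 to 0.431). The 16 to 19-nt reads numbered 2107 in WT and 2038 in KO, and the 20 to 23-nt reads 5083 and 4273. AA474408 alone held 4191 WT and 3879 KO reads of 16 to 23 nt, with a ratio of 0.912 (0.872 to 0.953). No separate ratio at 16 to 23 nt was computed for all the other genes together. Reads of 19 nt, a length known among by-products of piRNA cleavage, stood at 0.969 times (0.894 to 1.05) the mean of 18 and 20 nt in WT and 1.06 times (0.973 to 1.15) in KO, so that no excess was detectable. AA474408 decided this value. Without it the 19-nt reads stood at 2.62 times (2.32 to 2.96) in WT and 3.26 times (2.86 to 3.73) in KO. Of these 605 WT and 581 KO reads, 225 and 307 end in CCA, the bases that end mature tRNAs, and 136 and 127 matched Gm15564. The most abundant 19-nt sequence, with 139 WT and 175 KO reads, is an example, with its last 3 bases in capitals.
Gm12505: tttcccggccaatgcaCCA
Reads of 16 nt stood at 0.951 times (0.832 to 1.09) those of 17 nt in WT and 0.828 times (0.723 to 0.947) in KO. Without AA474408 they stood at 1.20 times (1.03 to 1.40) and 1.02 times (0.879 to 1.19).

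The genes were scattered over the genome. The 196 genes lay on all nuclear chromosomes, with 19 on chromosome 1, 17 on chromosome 7 and 16 on chromosome 5. Of them, 11 lay within 100 kb of another of the 196 or of a left-out locus. These 11 included Malat1 and Neat1 on chromosome 19, Rian and Mirg on chromosome 12, and Gm20186 beside the left-out Gm26809 on chromosome 6.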

How the data were processed

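The deposited tables give, for each library, the distinct sequences of 11 to 48 nt left after the authors removed the adaptor, with the raw count of each, neither mapped nor normalized. Their processing notes name mm9, and no mm9 genome was used here. The libraries came from TruSeq small RNA preparations. Here, sequences of at least 16 nt were matched without mismatch, in either orientation, to 141767 GENCODE M21 transcripts (GRCm38), in Python 3.11.15 with numba 0.67.0, so that RNAs of introns and of regions between genes are not members. Sense matches in miRNA hairpins were taken as miRNA, matches to rRNA or sense matches to snRNA, snoRNA and like genes as structural. Nuclear tRNAs and full rRNA are not among these transcripts. Symbols and positions of RefSeq small RNAs came from its table for GRCm38.p6. Counts were scaled to miRNA reads.

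KO/WT ratios have exact conditional binomial (Clopper-Pearson) intervals and shares have Wilson intervals. No p-values are given. PCR copies were not marked by molecular identifiers, so intervals cover counting error only. A count of 3 reads was 1.19 and 1.17 per 1000000 miRNA reads in WT and KO. Genes were compared at 20 or more reads over both libraries. The members and lists were chosen with earlier results of these data known. Genes were named as the 15 with the most normalized reads, the 5 lowest and 5 highest ratios at 50 or more reads, and the listed genes with 20 or more. The low-uracil genes beyond these were described because the results turned on them. The interval and the placement of sequences were tested on simulated or read-back data. Alternatives changed the normalizing total, counted each sequence once, set read minimums, dropped 33 nt, sequences within 2 mismatches of another gene, the most abundant gene and the most abundant sequence of each gene, and, chosen after seeing the data, AA474408, Gm15564, Rmrp and Rian, or the 9 low-uracil genes, and the largest pair at a 10-nt overlap.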

Additional observations from a re-analysis of the deposited data

How the results depend on the processing

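The KO/WT ratio of all members kept its interval below 1 under all 12 alternatives, between 0.403 and 0.517, and so did each ratio by strand and first base under 12, by length class under 11 and by gene type under 8. The count of genes at least 2-fold lower, 134 of 196, became 71 of 105 with at least 2 reads per sequence, 44 of 72 without sequences within 2 mismatches of another gene, 263 of 369 at 10 reads per gene and 58 of 91 at 50, since each tests other numbers of genes. Over the same 196 genes the count also moved with the normalizing total. It was 112 (57.1%) with all reads, 117 (59.7%) with structural RNA fragments and 132 (67.3%) with 20 to 23-nt reads. The count at least 2-fold higher became 1 with each sequence counted once, 1 without the most abundant sequence of each gene, and 0 with at least 2 reads per sequence or 50 per gene. The KO share with adenine at position 10 fell below 25%, to 23.5%, without sequences within 2 mismatches of another gene, and the cause was not tested. The 10-nt overlap in KO was 7.61% with each 5′ end counted once, 7.42% without sequences within 2 mismatches of another gene, where an overlap of 26 nt led, and 23.3% without the largest pair. Counted as distinct sequences, the 19-nt RNAs stood at 1.48 (WT) and 1.40 (KO) times their neighbours and the 16-nt RNAs at 1.34 and 1.27. Without AA474408 the 19-nt values were 2.62 and 3.26 and the 16-nt values 1.20 and 1.02. No paired analysis was possible because each genotype has 1 library. With 81.9% of WT sequences read once, changes of single sequences were not detectable, and 2615 genes were too sparse for a gene value.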
